A study of Homo sapiens with 9 samples.

Results

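Human HEK293 cells, which derive from embryonic kidney, carried either shRNA 4 (KD4) or shRNA 3 (KD3), different hairpins against SMCHD1, and the 2 knock-downs were compared with each other. The members were chosen by array title, 3 KD4 arrays and 3 KD3 arrays, which are 6 of the 9 arrays of the series. The other 3 arrays carried the control hairpin NC5 (CTL). All 3 groups were HEK293 populations infected with a pQCXIP-GFP retrovirus and selected with puromycin, so that each sample is a population and not a clone, and all groups, CTL included, carried the vector. The methods call the arrays biological triplicates, but the sources used here do not say whether they came from separate infections, and p-values therefore measure only the spread between these samples. Each sample was hybridized to a one-color Agilent human expression array. Both knock-downs lower the same transcript, and the direct comparison asks which transcripts differed with the hairpin used.

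SMCHD1 belongs to the family of structural maintenance of chromosomes proteins and is known for keeping genes silent on the inactive X chromosome, at some imprinted loci and in the protocadherin clusters. A short hairpin RNA is cut by the cell into a short duplex, and 1 strand of it guides an Argonaute protein to transcripts that it can pair with. The bases near the 5′ end of that strand, called the seed, contribute most to target recognition.

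The hairpins are shown because they are what the groups differ in by design. Capitals mark the 2 arms that pair with each other, 5′ to 3′, on either side of the loop.
KD3: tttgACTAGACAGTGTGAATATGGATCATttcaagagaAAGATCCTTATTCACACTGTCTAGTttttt
KD4: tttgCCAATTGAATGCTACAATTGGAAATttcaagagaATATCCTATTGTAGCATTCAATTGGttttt
CTL: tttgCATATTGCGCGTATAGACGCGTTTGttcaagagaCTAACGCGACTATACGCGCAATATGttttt
All 3 share a length of 68 bases, arms of 25 bases and a loop of 9 bases, and in each hairpin 23 positions of the arms pair and 2 do not. Counted from 1 at the 5′ end of the first arm, with the base of the first arm first and the base that would pair with the second arm last, the unpaired positions are T18A and A24T in KD3 and T19A and A23T in KD4. Bases 2 to 8 of the second arm read AGATCCT in KD3 and TATCCTA in KD4, and neither is the seed of any of 2545 mature human miRNAs in RefSeq. The longest run of bases that the second arms of KD3 and KD4 have in common is 5 bases. Whether any transcript other than SMCHD1 carries a site for either hairpin was not tested.

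The median processed signal was between 135.3 and 153.1 on the KD3 arrays and between 119.6 and 149.4 on the KD4 arrays, and 75.1% to 79.8% of probes were well above background on each of the 9 arrays. Signals were put on the log2 scale and normalized to a common distribution over the 9 arrays. Markers of HEK293 cells were detected, and all 14 genes of a list of neural and kidney markers were well above background on every array. Most probes were well above background, so that detection alone does not identify the cells. Of these 14 markers 0 were called between KD4 and KD3, where 0.518% of all tested genes were called. The intermediate filament gene VIM, for example, had a mean log2 signal of 16.81 in KD3 and 16.97 in KD4. Of 12 markers of blood, liver, endothelium, muscle and fibroblasts, 9 passed the filter on dim probes and 0 were called, with mean log2 signals from 4.80 (DCN) to 9.75 (DES) in KD4. Precision is limited by the 3 arrays per group.

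SMCHD1 itself was lower in KD4 than in KD3. On the brightest of its 3 probes the log2 signal was 10.40, 10.16 and 10.32 on the KD3 arrays and 9.63, 9.80 and 9.77 on the KD4 arrays, against 11.20, 11.37 and 11.22 on the CTL arrays. The KD3 and KD4 arrays did not overlap, and every CTL array was above both. The difference between KD4 and KD3 was -0.56 (standard error 0.0896, adjusted p = 0.0183 from limma), and 51.0% of the CTL signal remained in KD3 and 34.6% in KD4. An exact permutation test over the 6 arrays gave p = 0.1 (two-sided), the smallest that 3 arrays against 3 allow. The other probes differed by -0.51 (adjusted p = 0.0132) and by -0.54 (adjusted p = 0.0859, not past the threshold of 0.05). The adjusted p of the brightest probe rose above the threshold, to between 0.054 and 0.0659, when KD3 replicate 1, KD3 replicate 3 or any of the 3 KD4 arrays was left out. Signal per array cannot tell fewer SMCHD1 transcripts in every cell from a larger share of cells with a strong knock-down.

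**Figure D1:**
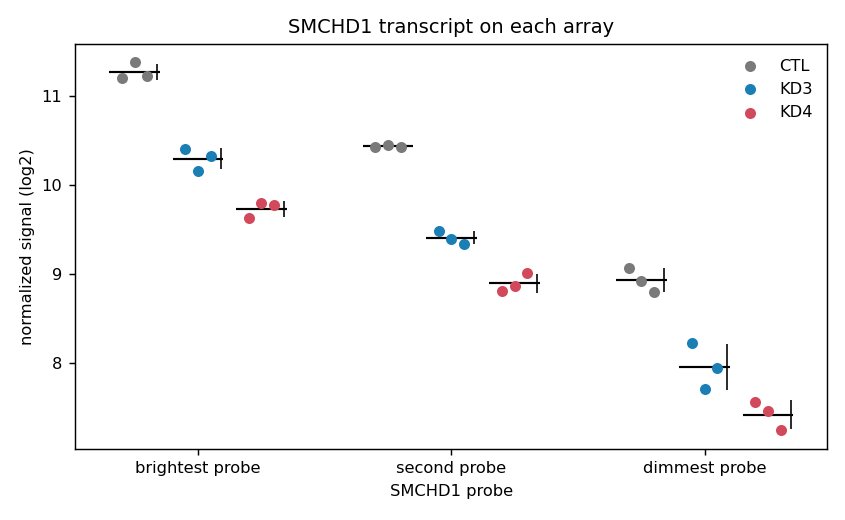
Normalized log2 signal of the 3 SMCHD1 probes on each array (points), with the group mean (horizontal line) and SD (vertical line) for CTL, KD3 and KD4, 3 arrays each. On every probe the 3 KD4 arrays lie below the 3 KD3 arrays, which lie below the 3 CTL arrays.

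Between KD4 and KD3, 31762 probes of 26441 genes were tested, those well above background on every array of KD3 or of KD4. Genes are counted here by label, and the labels comprise 15877 named genes, 5705 lincRNA probes known by position and entries known only by accession. A call needed an adjusted p under 0.05 and a fold of at least 1.8. By this rule 144 probes (0.453%) of 137 genes differed, 0.518% of the genes tested, of which 62 were higher in KD4 (0.234%) and 75 were lower (0.284%). The higher genes were 52 named genes, 6 lincRNA probes and 4 accession labels, and the lower genes 51, 6 and 18. The adjusted p alone was passed by 806 genes (3.05%). The split between directions depended on the scaling, since scaling each array to its 75th percentile gave 102 genes higher and 41 lower, and normexp background correction gave 25 and 10. Leaving out KD3 replicate 1 took the lower genes from 75 to 45. Of the 137 genes, 94 were called on a probe well above background on all 6 knock-down arrays. A single passing probe sufficed for a gene to be counted. Multiple probes were tested for 34 of the 137, and in only 6 of those 34 did every probe pass the rule. The counts are therefore of genes with at least 1 passing probe. Slide 1 held 1 KD3 array and 2 KD4 arrays and slide 2 held 2 and 1, and all 137 genes had the same direction on both slides, 93 of them past the fold on both. The genes were called on these same arrays, so that the shared direction is no separate support. The median log2 difference over all genes was 0.02.

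Over the tested probes the knock-downs lay closer to each other than to CTL. The distance between arrays, as 1 minus the Pearson correlation, was on average 0.00432 within KD3 (3 pairs), 0.0042 within KD4 (3 pairs) and 0.00644 between KD3 and KD4 (9 pairs, SD 0.00114). To CTL it was 0.0102 from KD3 and 0.0128 from KD4. KD3 replicate 1 was the KD3 array farthest from KD4, at 0.00685 to 0.00869 from its 3 arrays.

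**Figure D2:**
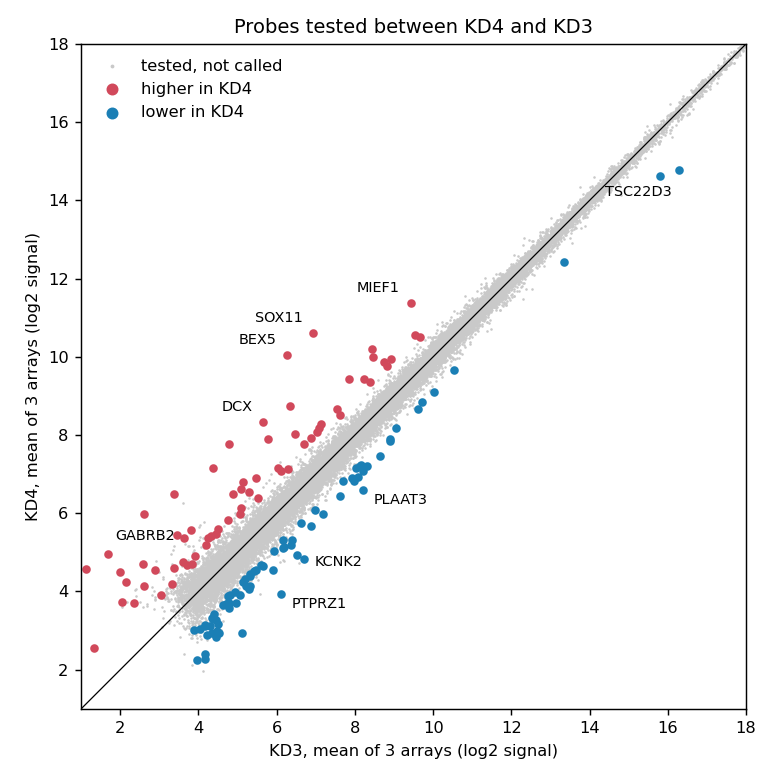
Mean log2 signal of each tested probe in KD3 (x axis) and KD4 (y axis), 3 arrays each, with the line of equality. Probes called higher in KD4 (such as BEX5 and SOX11) and lower in KD4 (such as PTPRZ1 and TSC22D3) stand off the line, and most of the 31762 probes lie along it.

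Among named genes measured on all 6 knock-down arrays, the largest differences toward KD4 were in BEX5, SOX11 and DCX. Labels without a gene name were left out of this ranking, among them 1 measured label higher in KD4 by 3.00 and 5 with differences from -1.22 to -1.16, and so were Y-linked genes. With normexp background correction all of the 12 highest named genes except SPOCK3 kept their call, and of the 12 lowest KCNK2, PLAAT3 and TSC22D3 did. BEX5, a member of the brain-expressed X-linked family, had log2 signals of 6.42, 6.20 and 6.19 in KD3 and of 10.09, 9.95 and 10.11 in KD4, a difference of 3.78 (standard error 0.167, adjusted p = 3.92e-05 from limma). SOX11, a transcription factor of neuronal progenitors, had 7.001, 6.96 and 6.85 in KD3 and 10.62, 10.56 and 10.63 in KD4, a difference of 3.66 (standard error 0.0736, adjusted p = 1.78e-07). DCX, which encodes the microtubule-binding protein doublecortin of migrating neurons, had 5.57, 5.59 and 5.80 in KD3 and 8.30, 8.36 and 8.33 in KD4, a difference of 2.67 (standard error 0.0886, adjusted p = 6.67e-06). All 3 genes were thus several-fold higher on every KD4 array than on any KD3 array, by 13.7-fold, 12.7-fold and 6.39-fold on average. A second DCX probe differed by 2.77 (adjusted p = 0.000131). Their CTL levels were not alike, since BEX5 stayed at background in CTL (mean 1.47), SOX11 had a mean of 4.89, and DCX at 5.34 was close to its KD3 mean of 5.65.

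NALF1, an auxiliary subunit of the sodium leak channel NALCN, had log2 signals of 8.62, 8.39 and 8.32 in KD3 and of 10.17, 10.18 and 10.27 in KD4, a difference of 1.76 (adjusted p = 0.000822). NALCN, the pore-forming subunit of that channel, went the other way, with 7.97, 8.25 and 8.05 in KD3 and 6.93, 6.72 and 7.11 in KD4, a difference of -1.17 (adjusted p = 0.00408). The transcripts of a channel and of its auxiliary subunit were therefore called in opposite directions between the hairpins, although NALCN fell short of the fold with normexp background correction (-0.77). Against CTL, NALF1 differed by 1.84 in KD3 and 3.61 in KD4, and NALCN by 1.41 (adjusted p = 0.000168) and 0.24 (adjusted p = 0.188), comparisons that share the CTL arrays.

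ARC, an immediate-early gene of the synaptic cytoskeleton, was higher in KD4 as well, with 8.34, 8.59 and 8.47 in KD3 and 10.02, 10.00 and 10.01 in KD4, a difference of 1.54 (adjusted p = 0.00085). CYSLTR1, a receptor for cysteinyl leukotrienes, differed by 2.11 (adjusted p = 2.34e-05), with 5.85, 5.82 and 5.68 in KD3 and 7.81, 7.93 and 7.92 in KD4. The membrane protein gene ITM2A differed by 2.40 (adjusted p = 0.00408), the proteoglycan gene SPOCK3 by 1.61 (adjusted p = 0.0112), MAGEH1 of the melanoma antigen family by 1.58 (adjusted p = 0.00184) and CAPN6, a calpain without protease activity, by 1.54 (adjusted p = 7.91e-05). The KD4 and KD3 arrays of these 6 genes did not overlap. Since the genes were picked by their difference on the same arrays, this is no further support. CTL lay below both knock-downs for CYSLTR1, ITM2A, SPOCK3 and MAGEH1, whereas the CTL mean of CAPN6, 7.33, lay between its KD3 mean of 6.47 and its KD4 mean of 8.01.

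In 2 of the 12 measured and named genes with the largest positive differences, other probes for the gene did not show the difference. MIEF1, a mitochondrial outer membrane protein that recruits the fission machinery, differed by 1.96 (adjusted p = 0.000412) on 1 probe, with 9.25, 9.68 and 9.35 in KD3 and 11.50, 11.35 and 11.30 in KD4, while its 2 other and brighter probes differed by -0.01 and 0.00. CALCA, which encodes calcitonin and the calcitonin gene-related peptide, differed by 1.66 (adjusted p = 0.00027) on 1 probe and by 0.59 (adjusted p = 0.363) on the other. On the first probe CALCA was highest in CTL (mean 8.37), and its KD3 arrays (5.31, 5.02 and 5.07) lay below its KD4 arrays (6.94, 6.79 and 6.67).

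Among the genes lower in KD4, PTPRZ1, a receptor tyrosine phosphatase of glia, had log2 signals of 6.33, 5.92 and 6.09 in KD3 and of 3.90, 4.08 and 3.83 in KD4, a difference of -2.18 (standard error 0.152, adjusted p = 0.000422 from limma). Its CTL mean was 4.33, so that the KD3 arrays stood above both other groups. The potassium channel genes KCNK2 and KCND2 were lower too. KCNK2, a background potassium channel, had 6.92, 6.53 and 6.65 in KD3 and 5.06, 4.66 and 4.77 in KD4, a difference of -1.87 (adjusted p = 0.00135). KCND2, a voltage-gated channel of the A-type current, differed by -1.60 (adjusted p = 0.000936), and it was the only 1 called of 20 listed voltage-gated potassium channel genes tested. The auxiliary subunit gene KCNE2, outside that list and named after its value was seen, was also called lower (-0.93, adjusted p = 0.016). Its call was lost in 4 of the 9 fits that left out an array.

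TSC22D3, the glucocorticoid-induced leucine zipper gene, was a bright transcript and was lower in KD4, with 16.34, 16.30 and 16.21 in KD3 and 14.77, 14.76 and 14.77 in KD4, a difference of -1.52 (standard error 0.119, adjusted p = 0.000791). The CTL arrays, at 14.20, 14.33 and 14.70, were near KD4 (difference from CTL 0.36, adjusted p = 0.0529) and far below KD3 (1.87, adjusted p = 2.51e-05). PLAAT3, a phospholipase gene, differed by -1.60 (adjusted p = 0.000393), with 8.38, 8.13 and 8.08 in KD3 and 6.51, 6.53 and 6.76 in KD4, and its CTL mean of 4.89 lay below both.

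The remaining genes among the 12 lowest with a gene name were the protease inhibitor gene SPINK4 (difference -1.34), the neuron navigator NAV3 (-1.21), the zinc finger gene ZNF385B (-1.21), IGFL2 of the insulin growth factor-like family (-1.20), the proteoglycan gene SRGN (-1.16) and the adhesion molecule gene CLMP (-1.15), with adjusted p from 0.00184 to 0.0255. SPINK4, NAV3 and IGFL2 were highest in CTL, with means of 8.41, 6.59 and 7.80. The CTL means of ZNF385B (7.50) and SRGN (5.25) were also above both knock-downs. Their KD3 arrays did not differ from CTL by the adjusted p from limma (0.0766 and 0.615). The CTL mean of CLMP, 7.09, lay between the knock-downs. A second NAV3 probe differed by -0.22 (adjusted p = 0.368). SRGN was no longer called when KD3 replicate 3 or any of the KD4 arrays was left out.

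**Figure D3:**
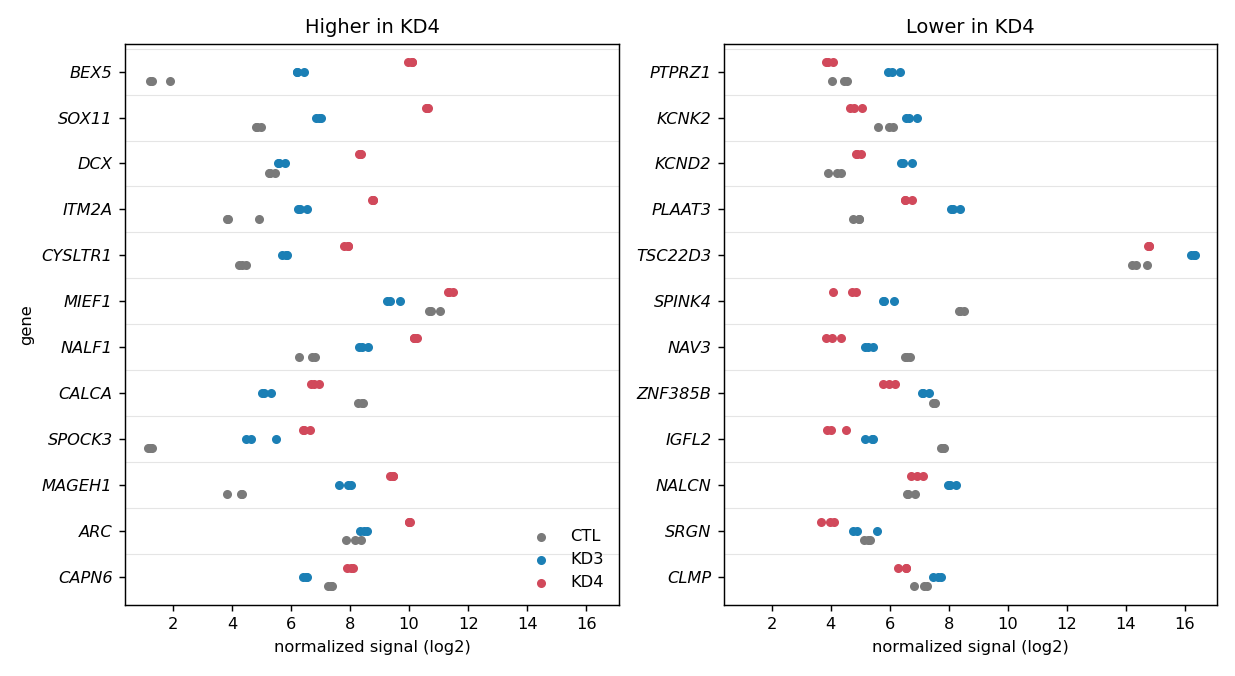
Normalized log2 signal on each array for the 12 genes with the largest positive (left) and negative (right) differences between KD4 and KD3 among called genes with a gene name, Y-linked genes left out, that were measured on all 6 knock-down arrays. The KD3 and KD4 points separate in every gene, which picking genes by their difference on these arrays favors. The CTL points lie below, between or above them depending on the gene.

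Some transcripts were well above background with 1 hairpin and not on any array with the other, so that the fold is uncertain and for some has only a bound. The floor on an array was its dimmest probe still scored well above background (2.18 to 2.48 on the log2 scale in KD3 and KD4), and a probe brighter than the floor kept its own value. Some probes not well above background exceeded the floor, so that the bounds are not strict. For IGFBP3, RNLS, SLC26A7, TSPAN11, ACSS1 and NWD2 this held on every array of the lower group. The floor then set no bound, and the fitted fold is given. Of the 62 higher genes 11 were of this kind, and of the 75 lower genes 12. Their probes passed the filter on dim probes only through the knock-down in which they were higher. Such a filter favors a difference, so that their adjusted p is weak support. GABRB2, a GABA-A receptor subunit, had 4.91, 4.99 and 4.95 in KD4 against 2.11, 1.60 and 1.34 in KD3, at least 6.01-fold higher in KD4 (adjusted p = 0.000314), and its CTL arrays were at 1.42, 1.49 and 2.04. ARSL, a sulfatase gene, was at least 4.24-fold higher (adjusted p = 0.00722). IGFBP3, which encodes a binding protein of insulin-like growth factors, was 2.34-fold higher by the fitted difference (adjusted p = 0.00408). The olfactory receptor gene OR1N1 was at least 3.01-fold higher with an adjusted p of 0.0498, and kept its call in only 1 of the 9 fits that left out an array, that without KD4 replicate 2. With normexp background correction GABRB2, ARSL, IGFBP3 and OR1N1 lost their calls. The bounds hold for the main processing only. Over the alternatives the lowest log2 differences were 0.58 for GABRB2, 0.43 for ARSL, 0.24 for IGFBP3 and 0.30 for OR1N1.

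In the other direction, RNLS, the renalase gene, was 2.51-fold lower in KD4 by the fitted difference (adjusted p = 0.000822). It had 4.58, 4.26 and 4.65 in KD3 and 3.24, 3.18 and 3.10 in KD4, and its CTL mean of 6.56 was above both. By the fitted difference the anion transporter gene SLC26A7 was 2.76-fold lower (adjusted p = 0.0146), the tetraspanin gene TSPAN11 2.64-fold (adjusted p = 0.0164) and ACSS1, a mitochondrial acetyl-CoA synthetase gene, 2.07-fold (adjusted p = 0.0402). A second, brighter TSPAN11 probe differed by 0.18 (adjusted p = 0.576), and a second, brighter ACSS1 probe by -0.76 (adjusted p = 0.00856). The call was lost without KD3 replicate 1 for all 3 genes, without KD3 replicate 2 for SLC26A7 and ACSS1, without KD3 replicate 3 for TSPAN11 and ACSS1, and without KD4 replicate 3 for SLC26A7 and ACSS1. For ACSS1 it was also lost without any other KD4 array or without CTL replicate 2. With normexp background correction RNLS, SLC26A7, TSPAN11 and ACSS1 all lost their calls.

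A pair of genes was called in opposite directions against CTL in the 2 knock-downs. NWD2, which encodes a protein with NACHT and WD repeat domains, had 5.60, 4.91 and 4.85 in KD3 and 3.55, 2.66 and 2.61 in KD4, with 4.27, 4.04 and 4.08 in CTL. It was above CTL in KD3 by 0.99 (adjusted p = 0.034) and below it in KD4 by a difference of -1.19 (adjusted p = 0.0126). MATN4, which encodes the matrix protein matrilin-4, had 2.86, 3.92 and 3.32 in KD3 and 6.38, 6.88 and 6.20 in KD4, with 5.54, 5.63 and 5.61 in CTL. It differed from CTL by -2.23 in KD3 (adjusted p = 0.000615) and 0.89 in KD4 (adjusted p = 0.0312), and was well above background on 1 of the 3 KD3 arrays. Between the knock-downs MATN4 differed by 3.12 (adjusted p = 0.000936) and NWD2 was 4.53-fold lower in KD4 by the fitted difference (adjusted p = 0.00722). Both comparisons with CTL share the CTL arrays.

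The X chromosome held more of the genes higher in KD4 than any autosome did. Of 884 X-linked genes tested, 17 were higher in KD4 (1.92%) and 3 were lower (0.339%), while of 20276 autosomal genes 0.197% were higher and 0.266% lower. X-linked genes were thus 17 of the 57 higher genes with a known chromosome (29.8%), 3 of 57 lower genes (5.26%) and 4.18% of the genes tested. These shares are descriptions without a test. The X chromosome as a whole did not stand higher in KD4, since the median difference was 0.01 over X-linked genes and 0.02 over autosomal genes. Medians of single chromosomes ran from -0.06 on chromosome 14 to 0.10 on chromosome 20.

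Besides BEX5, DCX, ITM2A, CYSLTR1, MAGEH1, CAPN6 and ARSL, the X-linked genes higher in KD4 included BEX1, a further brain-expressed X-linked gene, with 8.88, 8.71 and 8.60 in KD3 and 9.91, 9.77 and 9.90 in KD4 (difference 1.13, adjusted p = 0.00135). Unlike BEX5, BEX1 was highest in CTL (10.42, 10.59 and 10.68). Further X-linked genes, named after their values were seen, were SPANXN5 (difference 1.52) and MAGEA2B (1.11) of testis-expressed families of close copies, TMEM35A (1.14), KLHL4 (1.13) and DYNLT3, a dynein light chain gene (1.01), with adjusted p from 0.000328 to 0.0106. A second, dimmer DYNLT3 probe, not well above background on any KD3 array, was at least 4.63-fold higher in KD4 (adjusted p = 5.77e-05). That probe passed the filter on dim probes only through KD4. Neighboring named genes that were both higher in KD4 were CAPN6 with DCX and CYSLTR1 with ITM2A on the X chromosome and, also named after their values were seen, FAM111A (0.98) with FAM111B (0.92) on chromosome 11. FAM111A was not called without KD3 replicate 1 or KD3 replicate 2. With normexp background correction SPANXN5, MAGEA2B, KLHL4, DYNLT3, FAM111A and FAM111B lost their calls.

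**Figure D4:**
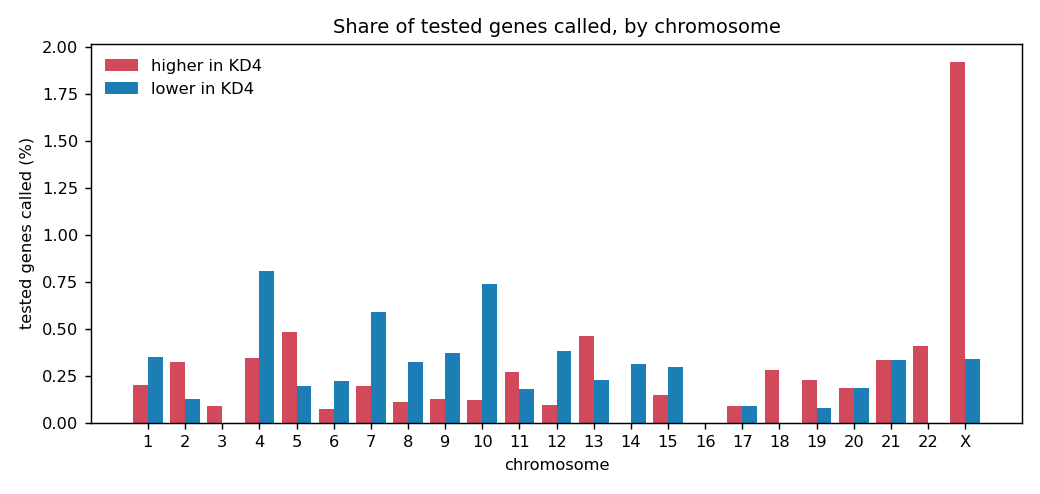
Percent of tested genes called higher (red) or lower (blue) in KD4 than in KD3 on each chromosome. The X chromosome reaches 1.92% for higher genes, and its share of lower genes, 0.339%, lies within the range of the autosomes.

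Genes were also read by lists, each described by its counts and its median log2 difference on the brightest probe of each gene, beside the median of 0.02 over all genes. Counts of called members stand beside 0.234% of all genes called higher in KD4 and 0.284% called lower. In the protocadherin beta cluster, adhesion genes in tandem on chromosome 5, 7 of the 15 members on the array passed the filter and were tested. Of these 7, 2 were called higher in KD4. All 7 had differences above 0, with a median of 0.72 (0.38 with normexp background correction). PCDHB2 had 7.09, 7.10 and 7.06 in KD3 and 8.29, 8.12 and 8.12 in KD4 (difference 1.09, adjusted p = 0.000565), against a CTL mean of 5.48. PCDHB16 had 5.04, 4.36 and 4.87 in KD3 and 5.89, 5.91 and 5.69 in KD4 (difference 1.08, adjusted p = 0.0152), and lost its call without KD4 replicate 1 or KD4 replicate 2, with normexp correction and with a replicate block. By the adjusted p alone, which 1.07% of all genes passed in this direction, 5 members were higher, with PCDHB8 at 0.79, PCDHB11 at 0.72 and PCDHB13 at 0.46. These genes are close copies of each other, and how far their probes share signal was not tested.

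The lists of the other protocadherin groups held 0 called genes, with medians of 0.24 over 4 alpha, 0.19 over 10 gamma and 0.21 over 9 delta protocadherins (0.15, 0.08 and 0.13 with normexp correction). The array held 15, 16 and 10 listed members of these groups. They do not hold every protocadherin, and a Y-linked one, not described here, was called higher in KD4. By the adjusted p alone PCDH19 (0.72, adjusted p = 0.00699) and PCDH7 (0.33, adjusted p = 0.0476) of the delta group were higher in KD4. Of the other gene families, 2 of 13 BEX and TCEAL genes (BEX5 and BEX1), 1 of 14 SOX genes (SOX11), 1 of 10 listed X-linked MAGE genes (MAGEH1) 1 of 11 GABA-A receptor genes (GABRB2) and 1 of 20 genes of the insulin-like growth factor axis (IGFBP3) were called, all higher in KD4. CTNND2, which encodes the neural catenin delta-2, was called among 20 cadherins and catenins, with 8.98, 8.90 and 8.86 in KD3 and 9.93, 9.91 and 10.00 in KD4 (difference 1.04, adjusted p = 0.000504). The kainate receptor gene GRIK3 was called among 13 ionotropic glutamate receptor genes (1.09, adjusted p = 0.00408), but its second probe was not (0.35, adjusted p = 0.326), and the first was highest in CTL with a mean of 8.38. ETV4, a transcription factor gene of the FGF response, was the called member among 42 genes of FGF and MAPK feedback (1.17, adjusted p = 0.00872). With normexp correction ETV4, GRIK3, GABRB2 and IGFBP3 lost their calls.

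Beside the voltage-gated potassium channels, lists with a called member lower in KD4 were collagens and laminins (1 of 35), imprinted genes (1 of 43) and interferon-stimulated genes (1 of 37). Their medians were -0.02, 0.04 and 0.01. The lists do not hold every gene of their kind, and 2 called genes outside them were named after their values were seen. The interferon-induced gene CMPK2 was higher in KD4 (1.43, adjusted p = 0.00202 from limma), a call lost with normexp correction. The collagen gene COL19A1 was lower (-0.88, adjusted p = 0.0225), a call lost in 5 of the 9 fits that left out an array. COL14A1, a fibril-associated collagen gene, differed by -1.02 (adjusted p = 0.000936) on 1 probe and by 0.10 (adjusted p = 0.821) on another. The imprinted RAS-related gene DIRAS3 had 4.82, 4.87 and 4.61 in KD3 and 3.60, 3.91 and 3.24 in KD4 (difference -1.18, adjusted p = 0.013), and lost its call without KD3 replicate 1 or KD3 replicate 2. DDX60, a helicase gene of the antiviral response, differed by -0.90 (adjusted p = 0.0422), and was called in only 2 of the 9 fits that left out an array, those without CTL replicate 1 or CTL replicate 2. With normexp correction COL14A1, DIRAS3 and DDX60 lost their calls, and DIRAS3 and DDX60 also did with scaling to the 75th percentile.

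Targets of p53, the transcription factor of the DNA damage response, held 0 called genes of 24, with a median difference of -0.24 and 18 genes below 0. By the adjusted p alone, which 1.62% of all genes passed in this direction, 6 were lower in KD4. They were the death receptor gene FAS (-0.67), SESN1 of the stress response (-0.55), ZMAT3 (-0.50), GADD45A (-0.43), BTG2 (-0.42) and MDM2, which encodes the ligase that degrades p53 (-0.34), with adjusted p from 0.00568 to 0.0491. FAS, for example, had 9.19, 9.01 and 8.98 in KD3 and 8.40, 8.44 and 8.33 in KD4, with 8.83, 8.91 and 8.87 in CTL. Targets of ATF4, the transcription factor of the amino acid response, held 0 called genes of 47, with a median of -0.20 and 39 genes below 0, and by the adjusted p alone DDIT4 (-0.64, adjusted p = 0.013) and the glycine transporter gene SLC6A9 (-0.77, adjusted p = 0.0209) were lower. The medians stayed below 0 when arrays were scaled to the 75th percentile, at -0.24 and -0.21.

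**Figure D5:**
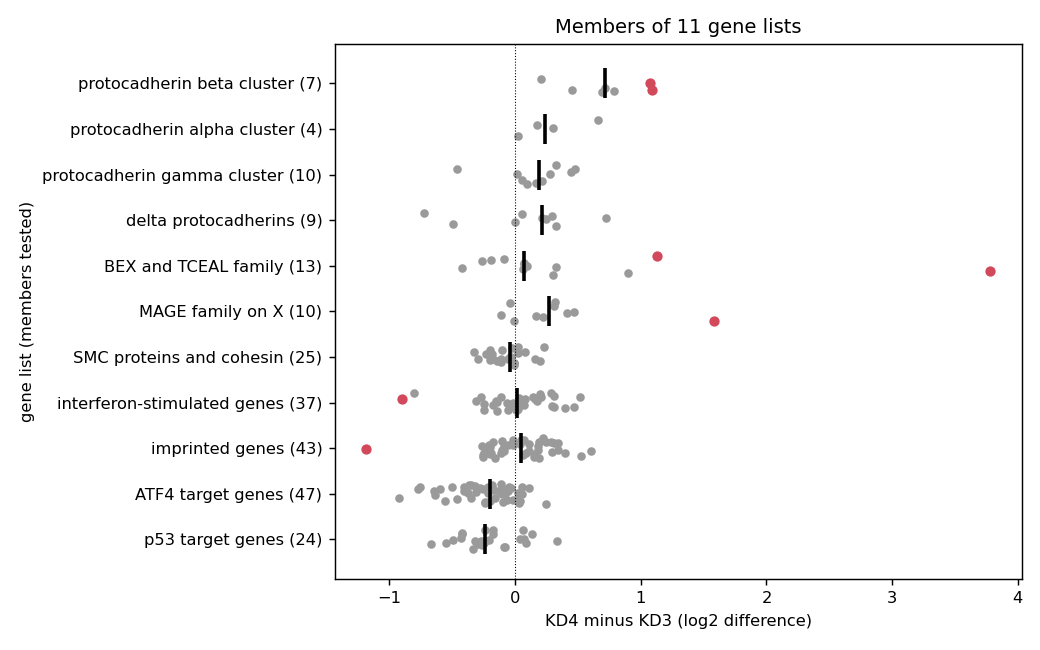
Log2 difference between KD4 and KD3 for each tested member of 11 gene lists (points, called genes in red), with the median of each list as a vertical bar. Protocadherin beta genes lie to the right of 0 (median 0.72), and p53 and ATF4 targets lie mostly to the left (medians -0.24 and -0.20).

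Lists close to the target gene and to hairpin processing held no called gene. With 0.518% of all genes called, most lists of this size would hold none, so that the counts of 0 say little about their members. Of 25 other SMC and cohesin genes 0 were called (median -0.04), of 23 factors of X inactivation and chromatin silencing 0 were called (median 0.08), and of 20 genes of the small RNA machinery 0 were called (median 0.01), with differences between -0.33 and 0.25 in the last list. By the adjusted p alone, which 1.07% of all genes passed in this direction, 1 of the 23 silencing factors was higher in KD4. The lists of axon guidance (63 genes), integrins (25), the Wnt pathway (49), the TGF beta and BMP pathway (49), HOX clusters (35), ER chaperones (22), heat shock proteins (22), cholesterol synthesis (29), glycolysis and hypoxia (32), cell cycle and replication (53) and retinoid genes (26) also held 0 called genes, again the more likely count at that share.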

How the data were processed

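The authors deposited spot intensities, made with Agilent Feature Extraction 10.10.1.1, whose green processed signal already had its background subtracted, and a table of log2 values quantile normalized over the 9 arrays in GeneSpring (written as quintile in the paper), which served here as an alternative. No column of per-sample values was left unused.

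Here, control spots and outlier-flagged spots were removed (260 to 634 of 58717 per array), the processed signals were put on the log2 scale and quantile normalized in R 4.3.3 (limma 3.58.1), and spots of a probe were averaged. Of 42405 probes, 21 lacked a value on an array and were dropped. Gene names came from RefSeq accessions (GRCh38.p14, 25422 probes). Since the array was designed on an older build, no coordinates are given. 8263 lincRNA probes carry a chromosome in their name.

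All 9 arrays entered 1 limma fit (lmFit and eBayes, a mean per group), adjusted by Benjamini-Hochberg over all tested probes, with contrast KD4 minus KD3. A gene was called by any probe. The fit was also run on simulated data built from the group means and variances fitted here. Of 66 probes changed by 1 on the log2 scale it recovered 55, with 4 false calls among the unchanged probes. The simulated noise was independent and normal, with no effect of slide or array. The result therefore checks the fit and does not show how reliable the calls on the real arrays are.

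Named genes were SMCHD1, the 12 highest and 12 lowest called genes that had a gene name and were measured on all 6 knock-down arrays, the 5 brightest per direction at background in the other group, genes called in opposite directions against CTL, and up to 4 called (otherwise the 2 brightest) members of each list. No Y-linked gene was named. Further list members past the adjusted p and genes said to be chosen later were added after their values were seen. A gene that this rule named is not reported here. The members and the gene lists were chosen with earlier results of these data known. Alternatives were scaling, arrays used, background correction, filters, the methods' test, fold thresholds, replicate or slide as a block, and leaving out arrays. Figures were drawn with matplotlib 3.10.9.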

Additional observations from a re-analysis of the deposited data

Results flagged for a closer look

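NWD2 and MATN4 passed the call against CTL in both knock-downs but in opposite directions, and the difference between the knock-downs was itself tested with limma. For NWD2 the fitted difference between KD4 and KD3 was -2.18 (adjusted p = 0.00722), and for MATN4 it was 3.12 (adjusted p = 0.000936). NWD2 was not well above background on any KD4 array and MATN4 was on 1 of the 3 KD3 arrays, so that the fitted sizes depend on signals near background. Both passed the filter on dim probes only through the knock-down in which they were higher. The calls between the knock-downs held when each array was left out in turn. With normexp background correction the call remained for MATN4 and was lost for NWD2.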

How the results depend on the processing

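The counts of genes higher and lower in KD4 (62 and 75) were 102 and 41 with scaling to the 75th percentile, so that 71.3% of calls were higher against 45.3%, and 25 and 10 with normexp background correction, of which 24 and 7 were among the original calls. They were 310 and 496 without a fold threshold and 147 and 199 with a fold of 1.5. The methods' t-test gave 0 and 0 calls after Benjamini-Hochberg adjustment and 79 and 98 at an unadjusted p under 0.05. Leaving out each array in turn gave 50 to 64 higher and 45 to 78 lower genes. The X-linked share of higher genes (29.8%) was 43.5% with normexp correction, 18.3% with a fold of 1.5 and 11.5% without a fold threshold.

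The SMCHD1 difference of -0.56 had an adjusted p of 0.181 by the methods' t-test, was between -0.63 and -0.51 with an array left out, and was -0.38 within slide 1 and -0.73 within slide 2. The ratio of the distance between the knock-downs to that within them (1.51) was 1.23 for Euclidean distance and 1.13 without a filter on dim probes.

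Same-numbered arrays of KD3 and KD4 did not deviate together (correlations of 0.14, -0.05 and 0.03), so that the replicate numbers were not taken as pairs. With a replicate block 48 genes were higher and 55 lower, and SMCHD1 (-0.56) had an adjusted p of 0.0643. In the 69 called genes of the tables behind the text no alternative turned a direction. All 9 fits that left out an array kept the call for 49 of them, the slide block kept 63, normexp correction kept 22, and the authors' log2 values kept all 69. The cause of these shifts was not tested.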
